A study of Mus musculus with 24 samples.

Results

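Mt1, Mt2, Mtf1 and Slc30a1 were 4 of the 23791 mouse genes for which the arrays hold a probe with a gene symbol, and 4 of the 16846 genes with a probe that was tested. They were picked by name, as genes of zinc buffering and export, and found through the RefSeq transcript given for each probe. A total of 6 probes matched them. Mt1 (NM_013602, probe A_66_P111660), Mt2 (NM_008630, A_51_P246317) and Slc30a1 (NM_009579, A_51_P300572) had 1 probe each, and Mtf1 (NM_008636) had 3 probes, A_66_P122382, A_52_P236072 and A_52_P467266. The first of the Mtf1 probes had the highest mean and stands for the gene below unless another is named. All 6 probes were well above background on all 24 arrays, and none of their spots was marked as uneven or saturated.

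These genes belong to the zinc response of the cell. MTF1 is the zinc finger transcription factor that senses free zinc, moves to metal response elements in DNA and switches on its targets. The best known targets are the metallothioneins MT1 and MT2, small cysteine-rich proteins that bind zinc, copper and cadmium and also scavenge oxidants, and Slc30a1, which encodes ZnT1, the carrier that exports zinc across the plasma membrane. Metallothionein genes are also known to respond to glucocorticoids and to oxidative stress, and in the testis metallothioneins are known for protection against cadmium.

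TM3 is a mouse line of Leydig cells, the testosterone-producing cells of the testis. All groups were TM3 cells grown in the same medium with horse and fetal bovine serum, washed, suspended in binding buffer and placed in electroporation cuvettes, so the controls carried the whole handling. The sham groups received no pulses, and the nsPEF groups received a nanosecond pulsed electric field of 80 pulses of 60 ns at 5.5 kV, a field of 14 kV/cm, over 180 s. RNA was taken at 0, 4 and 24 h in 4 biological replicates of each of the 6 groups, and the arrays asked what the field does to gene expression in these cells and for how long. The 4 replicates are cultures of 1 cell line, so their spread covers neither animals nor other lines. Of 8 Leydig cell markers on the array, Star, Cyp17a1 and Nr5a1 were well above background on all 24 arrays, whereas Cyp11a1, Hsd3b1, Hsd3b6, Lhcgr and Hsd17b3 were so on 0 arrays. The label Leydig cell therefore rests here on 3 markers, and the side-chain cleavage enzyme (Cyp11a1), the luteinizing hormone receptor (Lhcgr) and the testosterone-forming dehydrogenase (Hsd17b3) were not well above background.

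The 250 bases before the annotated start of each of the 4 genes are shown because metal response elements are known to lie in promoters, and they let the measured changes be read beside the elements that the genes carry. They are RefSeq sequences of the build GRCm38.p6, all on the plus strand, at chr8:94178839-94179088 for Mt1, chr8:94172368-94172617 for Mt2, chr1:191906531-191906780 for Slc30a1 and chr4:124802299-124802548 for Mtf1, and all 4 genes were matched by symbol. Capitals mark the core of the metal response element, searched as TGCACNC and TGCGCNC on both strands, and no 2 matches overlapped.
Mt1: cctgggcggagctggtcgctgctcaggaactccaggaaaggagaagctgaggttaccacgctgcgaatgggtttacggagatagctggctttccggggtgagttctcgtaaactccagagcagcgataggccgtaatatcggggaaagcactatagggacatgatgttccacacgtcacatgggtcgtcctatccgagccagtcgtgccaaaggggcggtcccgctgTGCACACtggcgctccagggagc
Mt2: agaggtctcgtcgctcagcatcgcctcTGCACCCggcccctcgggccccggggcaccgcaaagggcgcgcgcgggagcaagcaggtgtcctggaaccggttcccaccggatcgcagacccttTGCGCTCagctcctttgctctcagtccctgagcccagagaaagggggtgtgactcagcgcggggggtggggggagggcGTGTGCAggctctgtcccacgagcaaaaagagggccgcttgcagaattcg
Slc30a1: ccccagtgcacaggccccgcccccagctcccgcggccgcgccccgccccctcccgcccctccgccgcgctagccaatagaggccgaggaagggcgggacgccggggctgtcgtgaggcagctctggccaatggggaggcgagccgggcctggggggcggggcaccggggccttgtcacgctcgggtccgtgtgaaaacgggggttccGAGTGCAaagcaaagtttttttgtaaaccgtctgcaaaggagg
Mtf1: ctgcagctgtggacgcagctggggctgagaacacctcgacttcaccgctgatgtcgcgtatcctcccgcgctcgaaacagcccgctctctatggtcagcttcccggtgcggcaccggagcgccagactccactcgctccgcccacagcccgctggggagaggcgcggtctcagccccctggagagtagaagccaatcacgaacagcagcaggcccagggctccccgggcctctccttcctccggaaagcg
The search window also held the 50 bases after the start, which are not printed. In these 300 bases Mt2 had 4 matches, 3 of them before the start at 223, 128 and 50 bases. Mt1 had 3 matches, 1 at 23 bases before the start and 2 after it. Slc30a1 had 2 matches, 1 at 43 bases before the start and 1 after it, and Mtf1 had 0. Of all 32851 promoters of this length, 25.7% held at least 1 match, 7.11% at least 2, 1.97% at least 3 and 0.517% at least 4. Distances and counts hold for the start that the promoter table uses. In the gene table of the same build the gene begins 206 bases earlier for Mt1 and 84 bases earlier for Slc30a1, and where transcription began in these cells was not measured, so the printed bases may not be the stretch before the start in use. A match is a description of the letters and not a binding site.

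Signals are given on the log2 scale after the 75th percentile of each array was subtracted, on which a probe at its array's percentile reads 0 and a step of 1 is a doubling. Levels of different probes cannot be compared on this scale. In bulk RNA, fewer cells of a type and less RNA per cell cannot be told apart.

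Mtf1, the zinc sensor, rose between 0 and 4 h and was lower again at 24 h, in sham and nsPEF alike. At 0 h the 4 sham arrays read 1.58, 1.62, 1.59 and 1.70, and the 4 nsPEF arrays read 1.62, 1.43, 1.64 and 1.79. At 4 h the sham arrays read 2.35, 2.43, 2.19 and 2.37, and the nsPEF arrays read 2.39, 2.41, 2.22 and 2.40. All 8 arrays of 4 h lay above all 8 arrays of 0 h, while sham and nsPEF overlapped at both times. At 24 h the sham arrays read 1.66, 1.67, 1.77 and 2.13, and the nsPEF arrays read 1.72, 1.83, 1.74 and 1.80. Within each treatment these values overlapped with those of 0 h, and they lay below all arrays of 4 h. The group means were 2.35 ± 0.092 (SD, n = 4) in nsPEF and 2.34 ± 0.1 in sham at 4 h, 1.81 ± 0.22 for sham and 1.77 ± 0.052 for nsPEF at 24 h, and 1.62 ± 0.055 and 1.62 ± 0.15 for sham and nsPEF at 0 h. From 0 to 4 h Mtf1 rose by 0.71 in sham (1.64-fold, 95% interval 1.44 to 1.87, limma adjusted p = 8.04e-07) and by 0.73 in nsPEF (1.66-fold, interval 1.46 to 1.89, adjusted p = 5.22e-07). From 4 to 24 h it fell by 0.53 in sham (adjusted p = 4.25e-05) and by 0.58 in nsPEF (adjusted p = 1.34e-05), although with arrays scaled on spike-in RNA the sham value turned to 0.124. The nsPEF call was lost with spike-in scaling (-0.186, adjusted p = 0.125) and with unscaled arrays (-0.48, adjusted p = 0.0744). From 0 to 24 h the differences were 0.18 in sham (limma adjusted p = 0.118) and 0.15 in nsPEF (adjusted p = 0.184). The sham difference was called with normexp background correction (0.249) and with the percentile over probes detected on all arrays (0.233). With spike-in scaling both were called (0.882 in sham and 0.63 in nsPEF), so a full return to the 0 h level was not shown.

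The other Mtf1 probes followed the same course with wider steps. Probe A_52_P236072 lay between -0.96 and -0.71 on the 8 arrays of 0 h, between 0 and 0.34 at 4 h, and between -1.28 and -0.84 at 24 h. It rose by 1.07 in sham (2.10-fold, adjusted p = 2.87e-09) and by 1.01 in nsPEF (2.02-fold, adjusted p = 6.31e-09) from 0 to 4 h. Probe A_52_P467266 lay between -1.40 and -0.90 at 0 h, between -0.10 and 0.27 at 4 h, and between -1.05 and -0.87 at 24 h. It rose by 1.18 in sham (2.26-fold, adjusted p = 7.92e-10) and by 1.35 in nsPEF (2.55-fold, adjusted p = 9.08e-11). The 3 probes therefore gave rises between 1.64-fold and 2.55-fold for the same transcript, and at 24 h they parted in direction. At that time A_52_P467266 was above its 0 h value by 0.30 in nsPEF (adjusted p = 0.0147), whereas A_52_P236072 stood at -0.20 against its own (adjusted p = 0.0892), or at 0.279 with spike-in scaling.

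**Figure D1:**
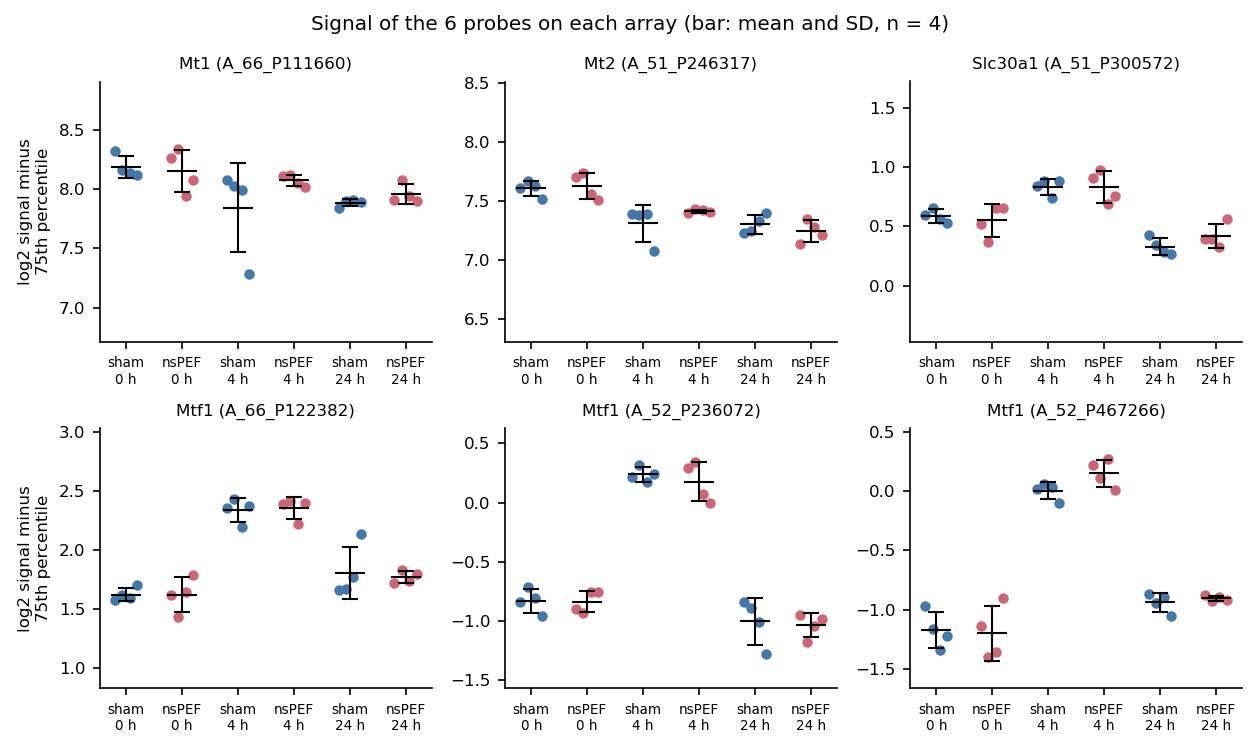
Signal of each of the 6 probes on each of the 24 arrays, as log2 signal minus the 75th percentile of the array (vertical axis) in the 6 groups (horizontal axis), with sham in blue and nsPEF in red. Long bars give the mean and short bars the SD of 4 arrays. All 3 Mtf1 probes stand higher at 4 h than at 0 h and 24 h in both treatments, and replicate 4 of sham at 4 h lies below the rest of its group for Mt1 (7.28) and Mt2 (7.08).

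The signal of Mt1, which encodes a metallothionein of most tissues, varied little. At 0 h the sham arrays read 8.32, 8.16, 8.14 and 8.12, and the nsPEF arrays read 8.26, 8.34, 7.94 and 8.08. At 4 h the sham arrays read 8.08, 8.03, 7.99 and 7.28, and the nsPEF arrays read 8.11, 8.12, 8.05 and 8.02. The 4 sham arrays of 4 h were all below the 4 sham arrays of 0 h, with replicate 4 far below the other 3, whereas the nsPEF arrays of both times overlapped. At 24 h the sham arrays read 7.84, 7.90, 7.91 and 7.89, and the nsPEF arrays read 7.91, 8.08, 7.94 and 7.90. In order of their means, sham at 0 h (8.19 ± 0.091, SD, n = 4) was highest, followed by nsPEF at 0 h (8.16 ± 0.18), nsPEF at 4 h (8.08 ± 0.05), nsPEF at 24 h (7.96 ± 0.081), sham at 24 h (7.89 ± 0.029) and sham at 4 h (7.84 ± 0.38). The steps between neighbours in this order lay within the range of single arrays, since each pair of neighbours overlapped.

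From 0 to 4 h Mt1 fell by 0.34 in sham (1.27-fold, limma adjusted p = 0.0234), and in nsPEF the difference was -0.082 (adjusted p = 0.595). The sham call was lost without replicate 4 of that group, which left a difference of -0.156, and with the arrays unscaled the difference was -0.00631. The difference between both courses was 0.26 with a 95% interval of -0.11 to 0.63 (adjusted p = 0.653), so the sham and nsPEF courses were not shown to differ. From 0 to 24 h the differences were -0.30 in sham (adjusted p = 0.0645) and -0.20 in nsPEF (adjusted p = 0.211). Replicate 4 of sham at 4 h had the highest 75th percentile of all arrays, 533 intensity units against 299 to 311 on the other 3 arrays of its group, so that more was subtracted from its Mt1 signal than on any other array.

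Mt2, encoded beside Mt1 on chromosome 8, was lower at 4 h and at 24 h than at 0 h. At 0 h the sham arrays read 7.61, 7.67, 7.63 and 7.52, and the nsPEF arrays read 7.70, 7.74, 7.56 and 7.51. At 4 h the sham arrays read 7.39, 7.38, 7.39 and 7.08, and the nsPEF arrays read 7.40, 7.43, 7.42 and 7.41. All 8 arrays of 4 h were below all 8 arrays of 0 h. At 24 h the sham arrays read 7.23, 7.25, 7.33 and 7.40, and the nsPEF arrays read 7.14, 7.35, 7.28 and 7.21. These were also below every array of 0 h, and the sham arrays of 24 h overlapped with those of 4 h. The group means were 7.63 ± 0.11 (SD, n = 4) in nsPEF and 7.61 ± 0.06 in sham at 0 h, 7.41 ± 0.014 in nsPEF and 7.31 ± 0.15 in sham at 4 h, and 7.3 ± 0.079 in sham and 7.25 ± 0.091 in nsPEF at 24 h.

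Mt2 fell by 0.30 from 0 to 4 h in sham (1.23-fold, limma adjusted p = 0.00113) and by 0.21 in nsPEF (1.16-fold, adjusted p = 0.0126). From 0 to 24 h it fell by 0.31 in sham (1.24-fold, adjusted p = 0.00192) and by 0.38 in nsPEF (1.30-fold, adjusted p = 0.000213). Between 4 and 24 h the difference was -0.01 in sham (adjusted p = 0.928) and -0.17 in nsPEF (adjusted p = 0.0471). The nsPEF call held in 8 of 16 other settings, and the value was 0.00499 with cyclic loess normalization, 0.227 with spike-in scaling, -0.0122 with quantile normalization, -0.0668 unscaled and -0.0442 with the percentile over probes detected on all arrays. It was also lost without any of the 4 nsPEF arrays of 4 h and without replicate 1, 3 or 4 of nsPEF at 24 h, with values from -0.204 to -0.135 over all 28 ways of leaving out arrays. The direction depended on the scaling in other comparisons too: the sham difference from 0 to 4 h was 0.0402 with unscaled arrays, and from 0 to 24 h the differences were 0.391 in sham and 0.095 in nsPEF with spike-in scaling. Spike-in scaling also moved the median of all tested probes from 0 to 24 h, to 0.696 in sham and 0.54 in nsPEF, and relative to these medians the Mt2 differences were -0.305 and -0.445.

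Slc30a1, the zinc exporter, was higher at 4 h than at 0 h, and at 24 h it was below its 0 h level in sham. At 0 h the sham arrays read 0.60, 0.66, 0.56 and 0.53, and the nsPEF arrays read 0.52, 0.37, 0.66 and 0.66. At 4 h the sham arrays read 0.84, 0.88, 0.74 and 0.88, and the nsPEF arrays read 0.91, 0.98, 0.69 and 0.76. All arrays of 4 h were above all arrays of 0 h, as for Mtf1. At 24 h the sham arrays read 0.43, 0.34, 0.28 and 0.27, and the nsPEF arrays read 0.39, 0.39, 0.33 and 0.56. The sham arrays of 24 h were below all sham arrays of 0 h, whereas the nsPEF arrays of both times overlapped. The group means were 0.84 ± 0.13 (SD, n = 4) in nsPEF and 0.83 ± 0.069 in sham at 4 h, 0.59 ± 0.054 for sham and 0.55 ± 0.14 for nsPEF at 0 h, and 0.42 ± 0.098 in nsPEF and 0.33 ± 0.072 in sham at 24 h. Sham and nsPEF overlapped at each time.

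The rise of Slc30a1 from 0 to 4 h was 0.25 in sham (1.19-fold, 95% interval 1.07 to 1.32, limma adjusted p = 0.00618) and 0.29 in nsPEF (1.22-fold, interval 1.1 to 1.35, adjusted p = 0.00191). With the percentile taken only over probes detected on all arrays, the sham value was 0.13 and did not pass the test (adjusted p = 0.106). From 4 to 24 h Slc30a1 fell by 0.50 in sham (1.42-fold, adjusted p = 5.46e-06) and by 0.42 in nsPEF (1.34-fold, adjusted p = 4.74e-05), although spike-in scaling turned the sham value to 0.149. The nsPEF call was lost with spike-in scaling (-0.0251, adjusted p = 0.839) and with unscaled arrays (-0.319, adjusted p = 0.281). From 0 to 24 h it fell by 0.26 in sham (adjusted p = 0.00906), which spike-in scaling turned to 0.441, or -0.255 relative to the median of all probes. In nsPEF the difference from 0 to 24 h was -0.13 (adjusted p = 0.144).

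These calls stand beside frequent calls among all probes. All 6 probes, of which 3 read the same Mtf1 transcript, passed the test from 0 to 4 h in sham, where 59.1% of the 37684 tested probes did (29.4% higher and 29.7% lower at 4 h). In nsPEF 5 of 6 passed it, where 61.3% did (33.5% higher and 27.8% lower). Any dependence on time was called for 6 of 6 probes, against 80.2% of all. In this test of limma the Mt1 call was lost with quantile normalization (adjusted p = 0.131) and with unscaled arrays (adjusted p = 0.615). The Mt2 call was lost with unscaled arrays (adjusted p = 0.221). From 0 to 24 h the calls were Mt2 and Slc30a1 in sham, 2 of 6 probes against 36.6% of all, and Mt2 and Mtf1 probe A_52_P467266 in nsPEF, 2 of 6 against 42.2%. From 4 to 24 h they were 4 of 6 in sham, against 57.7%, and 5 of 6 in nsPEF, against 56.6%. By size, the main Mtf1 probe changed more from 0 to 4 h in sham than 67.7% of tested probes, Mt1 more than 38.0%, Mt2 more than 33.4% and Slc30a1 more than 28.1%. Each time point filled 1 slide of 8 arrays, and in all of these values the slide and the time cannot be told apart. Cells of 0 h had also just been detached, washed and filtered, whereas those of 4 and 24 h had been in culture since. The paper proposes that Fos, Jun and Egr1 at 0 h could reflect stress from the long preparation. Time in culture and recovery from this handling cannot be told apart. Sham arrays lay in the upper row of their slide and nsPEF arrays in the lower row throughout, so the treatment cannot be separated from the row either, and the 2 cannot be told apart.

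**Figure D2:**
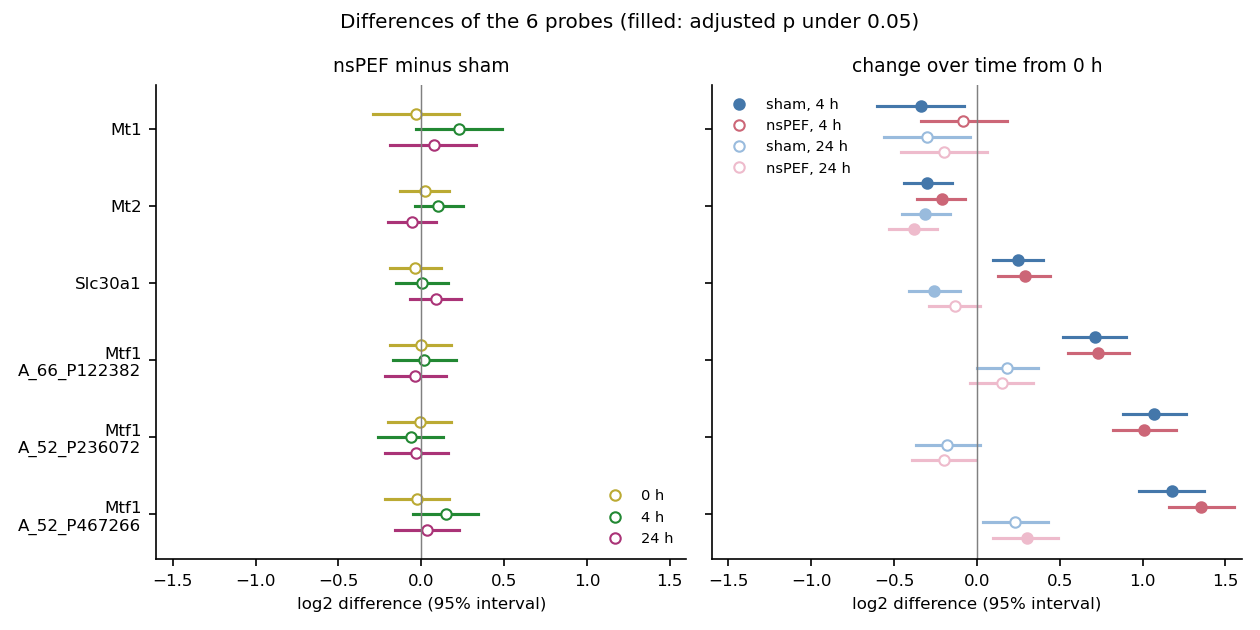
Log2 differences of the 6 probes with 95% intervals (horizontal axis), nsPEF minus sham at 0, 4 and 24 h on the left and the change from 0 h on the right, in sham (blue) and nsPEF (red), with 4 h in dark and 24 h in light shades. Filled points passed limma's test at an adjusted p of 0.05. No point is filled on the left, where the widest interval is that of Mt1 at 4 h (-0.03 to 0.49), and all Mtf1 points of 4 h are filled on the right.

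No difference between nsPEF and sham passed the test for any of the 4 genes. The number of probes called between nsPEF and sham was 0 of 6 at 0 h, 0 of 6 at 4 h and 0 of 6 at 24 h, where limma called 0.127%, 3.31% and 4.82% of all tested probes, and 0 of 6 over the 3 times together, where it called 8.84%. At an unadjusted p under 0.05 the counts were also 0 of 6 at each time and over the 3 times, against 10.0%, 21.0%, 22.0% and 26.1% of all tested probes. The dependence of the treatment effect on time was called for 0 of 6 probes, against 0.377% of all.

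Within the scaling used, the 95% intervals of the signal differences were narrow. For Mt1 the nsPEF minus sham difference was -0.03 at 0 h (95% interval -0.29 to 0.23), 0.23 at 4 h (-0.03 to 0.49, or 0.98-fold to 1.41-fold, adjusted p = 0.295) and 0.074 at 24 h (-0.19 to 0.33). The 4 h value of Mt1 was 0.0441 without replicate 4 of sham. For Mt2 it was 0.021 at 0 h (-0.13 to 0.17), 0.10 at 4 h (-0.04 to 0.25, adjusted p = 0.414) and -0.056 at 24 h (-0.20 to 0.09). At 4 h each nsPEF array of Mt2 lay above each sham array, from 7.40 to 7.43 against 7.08 to 7.39, and the two-sided exact permutation test gave p = 0.0286, the smallest that 4 against 4 arrays allow. That value covers 1 of the 18 tests of a probe at a time and is not adjusted, and the Mt2 difference was 0.0263 without replicate 4 of sham.

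For the exporter and the factor the 95% intervals all held 0. For Slc30a1 the difference was -0.035 at 0 h (-0.19 to 0.12), 0.004 at 4 h (-0.15 to 0.16) and 0.086 at 24 h (-0.07 to 0.24). For Mtf1 it was -0.003 at 0 h (-0.19 to 0.18), 0.019 at 4 h (-0.17 to 0.21) and -0.036 at 24 h (-0.22 to 0.15). The Mtf1 probe A_52_P467266 had the widest difference of these, 0.15 at 4 h (-0.05 to 0.34, adjusted p = 0.385), with nsPEF arrays from 0.01 to 0.27 and sham arrays from -0.10 to 0.06. It was 0.334 with spike-in scaling (adjusted p = 0.0576) and -0.262 with unscaled arrays. Over the 3 times together the differences were 0.092 for Mt1 (-0.06 to 0.24), 0.023 for Mt2 (-0.06 to 0.11), 0.018 for Slc30a1 (-0.07 to 0.11) and -0.007 for Mtf1 (-0.12 to 0.10). A rise of the metallothionein signals beyond 1.18-fold for Mt1 or 1.08-fold for Mt2, averaged over the 3 times, lies outside these intervals, within the scaling used. Mt1 and Mt2 were among the brightest probes, and whether their signal follows the amount of RNA in full was not tested. With spike-in scaling Mt1 and Mt2 were called higher in nsPEF at 4 h, by 0.42 (adjusted p = 0.0443) and 0.293 (adjusted p = 0.0236), where the median of all probes was itself at 0.194. With unscaled arrays both turned the other way at 4 h, to -0.176 for Mt1 (adjusted p = 0.24) and -0.304 for Mt2 (adjusted p = 0.0906).

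Before any scaling, both metallothionein probes were bright, and their intensity varied less than the 75th percentile of the arrays. By mean intensity Mt1 was brighter than 99.67% and Mt2 than 99.28% of the 56605 probes. The intensity of Mt1 ran from 63520 to 87627 over the 24 arrays, a range of 1.38-fold, and that of Mt2 from 39447 to 72100, a range of 1.83-fold. Over the same arrays the 75th percentile ran from 202 to 533 intensity units, a range of 2.64-fold. The intensity of Slc30a1 ran from 262 to 983 (3.76-fold) and that of the main Mtf1 probe from 545 to 2751 (5.05-fold), both wider than the percentile. Scaling by the percentile thus subtracts more variation from the Mt1 and Mt2 signals than these probes show themselves. On replicate 4 of sham at 4 h, with the highest percentile, Mt2 had its highest intensity (72100) and its lowest scaled value (7.08). On that array Mt1 read 83034, against 76874 to 81342 on the other sham arrays of 4 h. The main Mtf1 probe read 2751 there, against 1387 to 1673, and Slc30a1 983, against 505 to 572. Whether the small range of Mt1 and Mt2 lies in the RNA or in the response of such bright probes was not tested. The part of the scaling in the time changes of Mt1 and Mt2 was not tested beyond the alternative scalings.

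**Figure D3:**
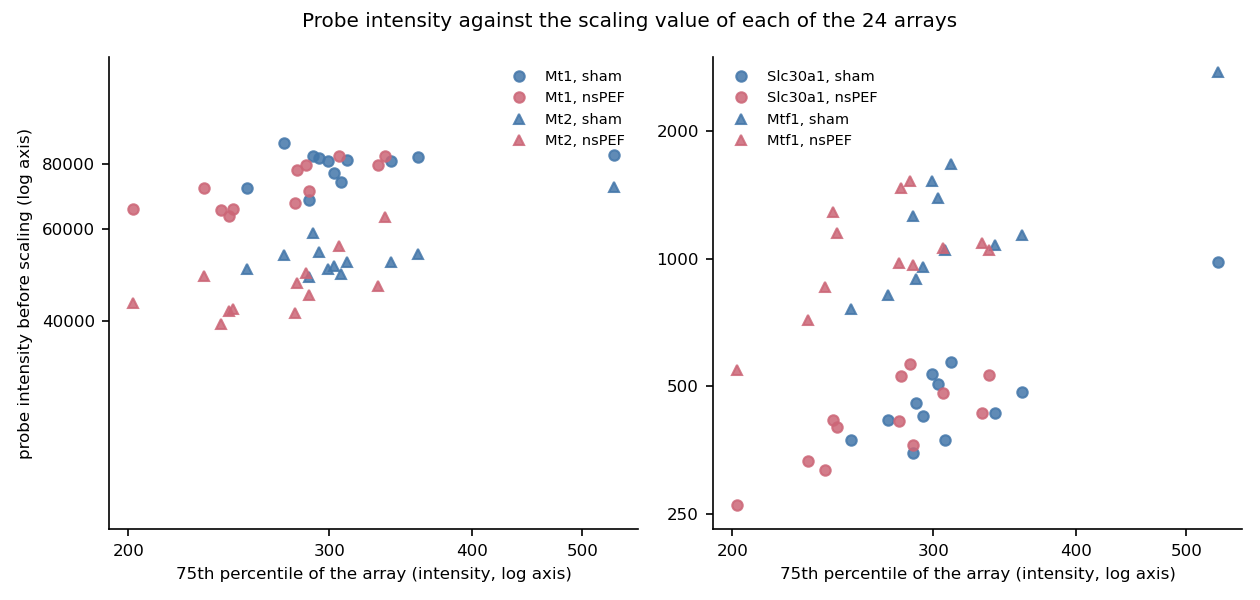
Probe intensity before scaling (vertical axis, log scale) against the 75th percentile of the same array (horizontal axis, log scale) on the 24 arrays, for Mt1 and Mt2 on the left and Slc30a1 and the main Mtf1 probe on the right, with sham in blue and nsPEF in red. The Mt1 points span 1.38-fold while the percentile spans 2.64-fold, and the array at a percentile of 533 is replicate 4 of sham at 4 h.

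The remaining metallothioneins gave a mixed picture. Mt3, the growth-inhibitory form best known from brain, fell from 0 to 4 h by 0.60 in sham (1.52-fold, limma adjusted p = 0.000148) and by 0.59 in nsPEF (1.51-fold, adjusted p = 0.000177), and was above its 0 h level by 0.32 at 24 h in nsPEF (adjusted p = 0.0304). The sham difference of Mt3 from 0 to 24 h was -0.116 (adjusted p = 0.471). Mt4, the form of squamous epithelia, was well above background on 22 of 24 arrays. It stood at -0.35 in sham (adjusted p = 0.159) and -0.19 in nsPEF (adjusted p = 0.546) from 0 to 4 h, and at 24 h it was higher than at 0 h by 0.76 in nsPEF (adjusted p = 0.00693), a call that 5 of 7 other scalings kept. The sham difference of Mt4 from 0 to 24 h was 0.255 (adjusted p = 0.367). Between nsPEF and sham 0 of the 2 were called at 24 h, where 4.82% of all tested probes were. Over the 3 times together 0 of the 2 were called, where 8.84% of all were.

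Of the 6 zinc exporter genes of the Slc30 family tested besides Slc30a1, 5 rose and 0 fell from 0 to 4 h in sham, where 29.4% of all tested probes rose, with a median of 0.30 against a median of -0.006 over all. In nsPEF 3 rose, 0 fell and 3 did not pass the test, where 33.5% of all rose, with a median of 0.25 against 0.091. Slc30a4, the carrier that loads vesicles with zinc and is needed for zinc in milk, rose most clearly, by 0.77 in sham (1.70-fold, adjusted p = 6.57e-09) and by 0.83 in nsPEF (1.78-fold, adjusted p = 1.83e-09). Slc30a7, a carrier of the Golgi, rose by 0.28 in sham (adjusted p = 0.000132) and by 0.26 in nsPEF (adjusted p = 0.000261). Under 7 other ways of scaling or background correction the number that rose was 3 to 5 in sham and 1 to 5 in nsPEF, and 0 fell. Slc30a9 was the only 1 of these 6 called between nsPEF and sham over the 3 times, lower in nsPEF by a difference of -0.14 (1.11-fold, adjusted p = 0.0158), and it was called under 3 of the 7 other scalings. Of all tested probes 8.84% were called in that comparison.

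Of 12 zinc importers of the Slc39 family tested, 7 rose and 2 fell from 0 to 4 h in sham, with a median of 0.46, and in nsPEF 7 rose and 2 fell, with a median of 0.59. Among all tested probes 29.4% rose and 29.7% fell in sham, with a median of -0.006. In nsPEF 33.5% of all rose and 27.8% fell, with a median of 0.091. Slc39a6, an importer of the plasma membrane, rose by 1.45 in sham (2.73-fold, adjusted p = 1.01e-13) and by 1.40 in nsPEF (2.64-fold, adjusted p = 1.63e-13). Slc39a13, an importer of the early secretory pathway, rose by 1.16 in sham (2.23-fold, adjusted p = 3.96e-14) and by 1.07 in nsPEF (2.10-fold, adjusted p = 1.17e-13). Slc39a14, which carries manganese and iron as well as zinc, rose by 1.05 in sham (2.07-fold, adjusted p = 1.47e-13) and by 0.98 in nsPEF (1.98-fold, adjusted p = 4.01e-13). The 2 that fell, named after their values were seen, were Slc39a11 (-0.62 in sham and -0.65 in nsPEF) and Slc39a4 (-0.50 in both), the latter the importer of the intestine. Of the 12, 0 were called between nsPEF and sham over the 3 times, where 8.84% of all tested probes were. Under the 7 other scalings 7 rose in sham each time and 5 to 8 in nsPEF.

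**Figure D4:**
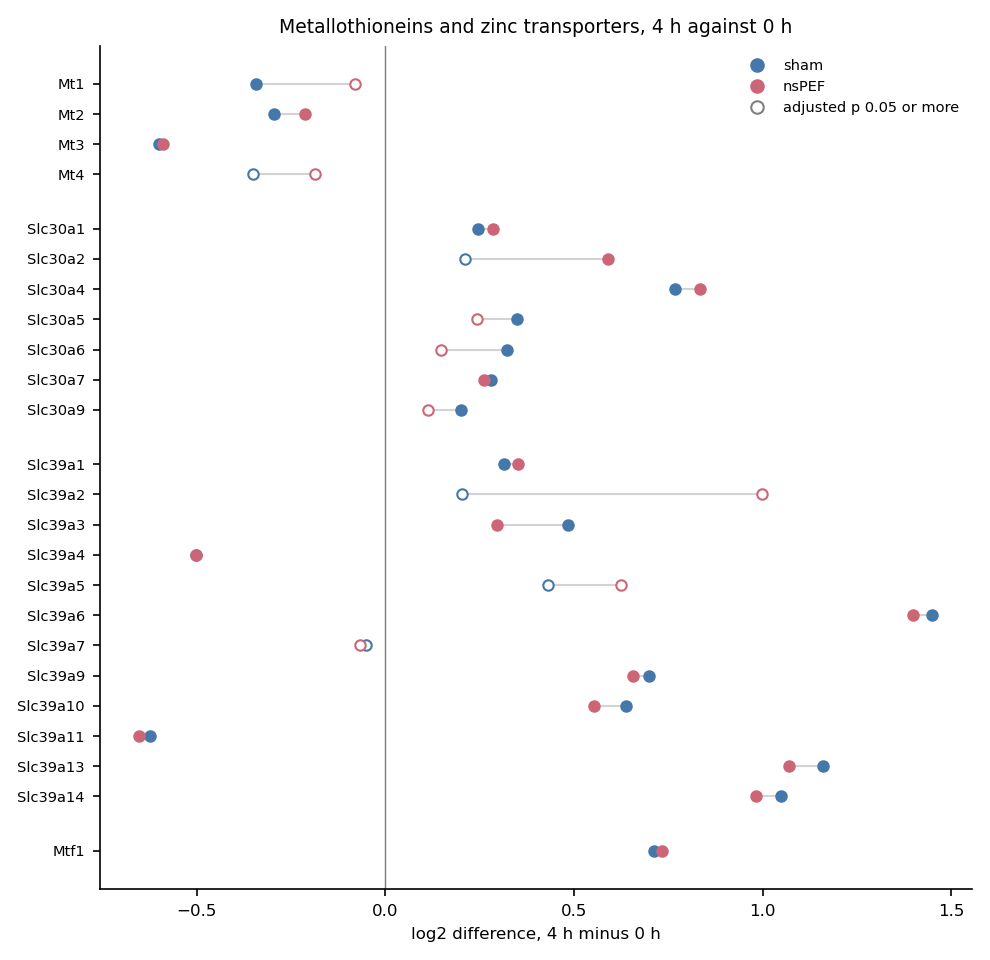
Log2 difference from 0 h to 4 h (horizontal axis) of the 4 metallothionein genes, the exporters of the Slc30 family, the importers of the Slc39 family and Mtf1, in sham (blue) and nsPEF (red), with open points where limma's adjusted p was 0.05 or more. In sham Slc39a6 (1.45), Slc39a13 (1.16) and Slc39a14 (1.05) lie farthest to the right, in nsPEF the open point of Slc39a2 (0.999) lies just beyond Slc39a14 (0.983), and Mt1, Mt2 and Mt3 lie to the left of 0 in both treatments.

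Other genes described as regulated by Mtf1 went both ways. Of 6 tested, 4 rose and 2 fell from 0 to 4 h in sham, with a median of 0.56, and in nsPEF 4 rose and 2 fell, with a median of 0.63. Of all tested probes 29.4% rose and 29.7% fell in sham, with a median of -0.006. In nsPEF 33.5% of all rose and 27.8% fell, with a median of 0.091. Slc39a10, an importer that Mtf1 is known to repress, rose by 0.64 in sham (1.56-fold, adjusted p = 5.81e-10) and by 0.55 in nsPEF (1.47-fold, adjusted p = 4.85e-09). Slc40a1, the iron exporter ferroportin, fell by 1.27 in sham (2.41-fold, adjusted p = 3.86e-08) and by 1.24 in nsPEF (2.36-fold, adjusted p = 5.39e-08). Pgf, placental growth factor, rose by 0.77 in sham (adjusted p = 0.0195) and by 1.56 in nsPEF (adjusted p = 4.28e-05), and Selenow, a small selenoprotein, fell by 0.50 in sham (adjusted p = 7.25e-07) and by 0.40 in nsPEF (adjusted p = 1.08e-05). Slc39a10 and Slc40a1 also belong to the lists of importers and of iron genes. Over the 3 times, 0 of the 6 were called between nsPEF and sham, where 8.84% of all tested probes were.

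Glucocorticoid-induced genes, and with them the receptor gene Nr3c1, were read because metallothionein genes respond to the same hormones. Most of these genes fell from 0 to 4 h. Of 7, 6 fell and 1 rose from 0 to 4 h, in sham (median -0.64) and in nsPEF (median -0.49), and under the 7 other scalings 2 to 6 fell in sham and 3 to 6 in nsPEF. Among all tested probes 29.7% fell in sham and 27.8% in nsPEF. From 4 to 24 h, 4 of the 7 rose and 2 fell in sham, and 3 rose and 3 fell in nsPEF. Of all tested probes 57.7% in sham and 56.6% in nsPEF were called between these times, in either direction. Zbtb16 fell by 1.98 in sham (3.94-fold, adjusted p = 4.21e-14) and by 2.16 in nsPEF (4.47-fold, adjusted p = 1.03e-14), and Per1, which is also a clock gene, fell by 1.53 and 1.56 (adjusted p = 8.14e-15 and 5.75e-15). The gene that rose was Nr3c1, the glucocorticoid receptor itself, by 0.69 in sham (adjusted p = 1.73e-10) and by 0.65 in nsPEF (adjusted p = 4.5e-10). Between nsPEF and sham over the 3 times, 0 of 7 were called, where 8.84% of all tested probes were.

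Iron and copper genes set the zinc genes beside the other metals that metallothioneins meet. Of 10 iron genes, 5 rose and 4 fell from 0 to 4 h in sham, and 6 rose and 3 fell in nsPEF, where 29.4% and 33.5% of all tested probes rose and 29.7% and 27.8% fell. Tfrc, the transferrin receptor, rose by 2.13 in sham (4.38-fold, adjusted p = 6.93e-16) and by 2.06 in nsPEF (4.17-fold, adjusted p = 1.06e-15), and Hmox1, the heme-degrading enzyme induced by oxidants, rose by 1.58 in sham (2.99-fold, adjusted p = 1.54e-14) and by 1.82 in nsPEF (3.53-fold, adjusted p = 1.73e-15). Of 9 copper genes, 1 rose and 3 fell in sham, and 2 rose and 3 fell in nsPEF. Between nsPEF and sham over the 3 times, 3 of the 10 iron genes and 0 of the 9 copper genes were called, where 8.84% of all tested probes were. Hmox1 was higher in nsPEF by 0.13 (1.1-fold, adjusted p = 0.0299), while Aco1, an iron regulatory protein, was at -0.11 (adjusted p = 0.0195) and Fbxl5, the iron-sensing ubiquitin ligase adaptor, at -0.13 (adjusted p = 0.0215). Under the 7 other scalings Hmox1 and Aco1 were called in the same direction in 4 and Fbxl5 in 3, and Hmox1 turned to -0.0904 in 1. The lists were read by their counts and medians only, and nothing particular to a list is drawn from them.

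The genes whose pattern over the 24 arrays was most like that of each member are given as a description, among 12253 genes measured on all arrays. Arrays share their slide and their scaling value, and so do all correlations across them. For Mt1 they were Gm10653 (Pearson r = 0.989), Ppia (0.986), Fth1 (0.985), Eef1a1 (0.981) and Rpl41 (0.98), with mean intensities from 55400 to 140000, beside 76000 for Mt1. Mt2 stood at place 175 with r = 0.809. For Mt2 they were Hmgb1 (0.963), Ndufa13 (0.957), Cfhr2 (0.932), Mrpl23 (0.931) and Atp5h (0.931). For Mtf1 they were Col22a1 (0.97), Elf4 (0.961), Stk10 (0.961), Frmd6 (0.961) and Ppp1r13l (0.958), and for Slc30a1 they were Cldnd1 (0.937), Mogs (0.932), Prdm2 (0.93), Coro1c (0.929) and Klf3 (0.927). Mtf1 and Slc30a1 had r = 0.712 with each other, and 0.276 after the mean of each time point was subtracted. Mtf1 had r = -0.326 with Mt1 and -0.378 with Mt2, and -0.123 and 0.0225 after that subtraction.

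Over the whole series, the share of probes well above background ran from 51.4% to 57.5% on nsPEF arrays and from 57.6% to 62.2% on sham arrays, so the treatments did not overlap in this share. The part of this difference in the values above was not tested. Of the mesenchymal markers 5 of 6 were well above background on all arrays, of the Sertoli cell markers 2 of 5, of the macrophage markers 2 of 4, of the endothelial markers 1 of 4 and of the germ cell markers 0 of 4. The summed levels of these lists, on the log2 scale and over the 3 times, overlapped between sham and nsPEF, for instance 8.4 to 9.03 and 8.41 to 9.08 for the mesenchymal list and 0.73 to 2.54 and 0.74 to 2.44 for the macrophage list, in which Ptprc and Adgre1 were each above background on 1 array. Over the 3 times Ddx4, a germ cell gene (-0.46, limma adjusted p = 0.013), and Csf1r, the receptor of a macrophage growth factor (-0.20, adjusted p = 0.048), were lower in nsPEF. In that comparison 8.84% of all tested probes were called. The other tested marker of each of these lists was not called, with Dazl at 0.37 (adjusted p = 0.522) and Cd68 at -0.068 (adjusted p = 0.472). Ddx4 was well above background on 16 of 24 arrays and Dazl on 2. Markers also moved with time. From 0 to 24 h both tested Sertoli cell markers fell in sham and in nsPEF, with a median of -1.9 in each, and under the 7 other scalings. Over the same time 4 of 5 tested mesenchymal markers fell in each treatment, although the number that fell ranged from 0 to 4 in sham over those scalings. Of 3 tested Leydig cell markers 3 fell in sham and 1 in nsPEF. Over those scalings 0 to 3 Leydig cell markers fell in sham and 0 to 1 in nsPEF, and 0 to 1 rose in each treatment. Of all tested probes 36.6% in sham and 42.2% in nsPEF were called from 0 to 24 h, in either direction. The part of these markers in the time changes of Mt1, Mt2, Mtf1 and Slc30a1 was not tested.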

How the data were processed

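Expression in 24 samples was measured on 1-colour Agilent arrays. The authors labelled the RNA with Cy3, scanned the arrays and read them with Agilent Feature Extraction 12.0, per the submitters' processing notes. The deposited scanner files hold the processed signal intensity of each spot, with the background subtracted by the software and no scaling between arrays. The deposited table of the series holds log2 values, which the authors shifted to the 75th percentile and set to a baseline, and it was used as an alternative.

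Marked spots were left out, 59305 spots were averaged to 56605 probes, and the 75th percentile of each array was subtracted on the log2 scale. Tests were run on 37684 probes that were well above background on at least 2 of 4 arrays of any group. With limma 3.58.1 in R 4.3.3, all 24 arrays entered a fit with 1 mean per group, and calls were made at a Benjamini-Hochberg adjusted p under 0.05, taken over every tested probe. The series' design text calls the 4 arrays of a group biological replicates, and the p-values measure only the spread between them. For limma this spread is 1 estimate per probe, shared by all 6 groups. Exact permutation tests are two-sided. The number of arrays limits the precision.

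The members and gene lists were chosen with earlier results of these data known. Genes other than the members are named from each list by the smallest adjusted p, up to 4 for treatment over the 3 times and up to 4 for time, and up to 5 by likeness to each member. The fit was tested on simulated data. Names and promoters came from RefSeq tables of GRCm38.p6. Protein sequences were not used here. Alternatives are given in the closing section.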

Additional observations from a re-analysis of the deposited data

Results flagged for a closer look

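For 36 groups of 4 arrays (6 probes in 6 groups), the gap of the highest or lowest array to its nearest neighbour was set against the whole range of the group, and about 1 group in 20 passes by chance. Of these groups 3 passed. Replicate 4 of sham at 4 h was the low array for Mt1 (7.28, next array 7.99, gap over range 0.883) and for Mt2 (7.08, next array 7.38, gap over range 0.958). Both values come from the array with the highest 75th percentile, 533 intensity units, and that array was not low in Mtf1 (2.37) or Slc30a1 (0.88). Replicate 3 of nsPEF at 4 h was low for the main Mtf1 probe (2.22, next array 2.39, gap over range 0.863).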

How the results depend on the processing

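For the main probes of the 4 genes, 478 of 508 values kept their direction and their side of the threshold under 16 other settings. Under 28 settings that left out arrays, 884 of 896 did. Both counts leave aside 24 h against 4 h, nsPEF against sham over all times together and the call of any dependence on time. For 24 h against 4 h these were 110 of 128 and 207 of 224, and the 17 that changed with arrays left out were all of Mt2 in nsPEF. The call of any dependence on time held in 13 of 15 other settings for Mt1, in 14 of 15 for Mt2 and in 15 of 15 for Mtf1 and Slc30a1. The unscaled arrays and the cyclic loess normalization were added after the data had been seen.

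In nsPEF against sham, with spike-in scaling on 6 probes Mt1 and Mt2 at 4 h came to 0.42 and 0.293, and with quantile normalization Mt2 at 24 h came to -0.14 (adjusted p = 0.0423). Of 1066 values of this comparison over all settings, those 3 were called, and the plain 2-way analysis that the study's methods name added none.

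Spike-in scaling turned 24 h against 0 h to 0.395 for Mt1 in sham, 0.391 and 0.095 for Mt2 in sham and nsPEF, 0.441 and 0.343 for Slc30a1, and 0.521 and 0.279 for Mtf1 probe A_52_P236072, and gave 0.882 and 0.63 for Mtf1. It turned 24 h against 4 h to 0.642 and 0.227 for Mt2, 0.124 for Mtf1 and 0.149 for Slc30a1 (sham for the latter 2), and gave 0.692 for Mt1 in sham, which cyclic loess put at 0.233. At 4 h against 0 h it gave -0.297 for Mt1 in sham and -0.132 for Mt2 in nsPEF. Without scaling, 4 h against 0 h was -0.00631 for Mt1 and 0.0402 for Mt2 in sham, and -0.212 for Mt2 and 0.288 for Slc30a1 in nsPEF. Without scaling, 24 h against 0 h was -0.0894 for Mt2 and -0.0392 for Slc30a1 in sham, and -0.278 for Mt2 in nsPEF. Cyclic loess gave -0.194 for Mt1 in nsPEF at 4 h against 0 h, and 0.175 and 0.00499 for Mt2 at 24 h against 4 h. Quantile normalization gave -0.112 for Mt1 in sham at 4 h, and only the 8 arrays compared gave -0.343 (adjusted p = 0.129). The percentile over probes detected on all arrays gave 0.13 for Slc30a1 in sham at 4 h and 0.233 for Mtf1 in sham at 24 h. At 24 h in sham, Mt1 was called with array weights (-0.327), normexp (-0.284) and only the 8 arrays compared (-0.302), and Mtf1 with normexp (0.249). Array weights gave -0.189 for Slc30a1 in nsPEF at 24 h. The cause was not tested.

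With arrays left out, these ranges crossed the threshold: Mt1 in sham at 4 h, -0.42 to -0.156 (lost without replicate 1 of sham at 0 h, without replicate 4 of sham at 4 h, without all replicates 1 and without all replicates 4), Mt1 at 24 h in sham, -0.326 to -0.243, and in nsPEF, -0.271 to -0.136, Mt2 in nsPEF at 4 h, -0.254 to -0.176, Mtf1 in nsPEF at 24 h, 0.0703 to 0.21, and Slc30a1 in nsPEF, 0.179 to 0.37 at 4 h and -0.194 to -0.0711 at 24 h.

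Replicate numbers were not taken to pair the samples, since only 6 of 12 same-numbered pairs had deviations that correlated above 0.1 (range -0.16 to 0.29). Those 6 were replicates 1 and 4 at all 3 times (0.11 to 0.29), so a shared origin of some replicates is not settled by this check. With the replicate number as a block, Mt1 in sham at 24 h was called (-0.302, adjusted p = 0.0443) and no other call of a main probe changed.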
